A study of Mus musculus with 120 samples.

Results

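Single ILC2 that secreted IL-13 (activated) were compared with single ILC2 under the same stimulation in which no IL-13 secretion was detected (silent). The 22 cells were chosen by their labels alone, 11 activated and 11 silent cells with IL13 as the index, the cytokine whose secretion was imaged, out of 120 cells in the series. A cell with fewer than 10000 reads in genes was to be dropped, and 0 of the 22 were. The cells came from the pooled mesentery of 20 wildtype C57BL/6 mice, labelled fat tissues, from which lineage-negative cells positive for c-Kit and Sca-1 were sorted as ILC2. Per the study's methods they were then kept for months in culture with IL-2, so they were expanded in culture rather than freshly isolated. Both groups were incubated with IL-2 and IL-33, and cells were recovered with a capillary under live imaging of secretion. The titles hold 2 dates, of which the first has 5 and the second 6 cells of each state, and the labels do not say what the dates are. No animal or culture is named for a cell, so each state was taken as 1 sample, the replicate numbers only name cells, and no test was made. The values below compare these cells only.

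Group 2 innate lymphoid cells carry no rearranged antigen receptor and respond to alarmins such as IL-33, which signals through ST2 (Il1rl1), and to IL-2, which signals through Il2ra, Il2rb, Il2rg and STAT5. In fat and mucosa they are known for the type 2 cytokines IL-13 and IL-5, which act on epithelium, macrophages and eosinophils. A cell that begins to secrete makes cytokine transcripts, translates them at the endoplasmic reticulum (ER), folds and oxidises the proteins there, and ships them in coated vesicles. Transcription of cytokine genes follows signals carried by NFAT, AP-1, NF-kB, STAT and GATA factors, and the ER answers a higher load through the unfolded protein response.

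Expression was measured as raw read counts per gene from 3' libraries and is given as CPM, reads of a gene per 1000000 gene reads, either of a single cell or of the reads summed over the 11 cells of a state. The log2 ratio is that of the summed CPM of activated over silent cells, and a state with fewer than 3 reads was set to 3 reads for it. Where a pair of CPM values is given, activated cells come first, and values in parentheses without a unit are log2 ratios, followed by the ratio without a named cell where that cell moved it by over 1.5-fold or ended a call. The activated cells held 207246 to 464285 gene reads (median 266402) and the silent cells 139108 to 321551 (median 235502). The reads carry no molecular identifiers, so intervals and floors cover counting error only. After each cell was thinned to 100000 gene reads, the lowest, median and highest number of genes with a read was 1536, 2910 and 3262 in activated cells and 1942, 2364 and 2799 in silent cells. The share of tallied alignments in no annotated feature had a median of 4.90% in activated and 9.36% in silent cells, and mitochondrial reads made up 1.22% and 2.52% of gene reads. Activated replicates 9 and 10 stood apart with 16.7% and 12.8% of alignments in no feature and with 1536 and 2017 genes, the fewest of the activated cells. By the labels, libraries went into tagmentation in pools of 5 or 6, which is also the number of cells of a state on a date. Which cells shared a pool is not given, so an effect of the pool cannot be told apart from one of the state.

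The cells were checked against markers of ILC2 and of other cells. Of 13 ILC2 markers, 12 had a read, among them Gata3 (333 and 689.9 CPM in activated and silent cells), Rora (546 and 558 CPM), Il1rl1 (895 and 481 CPM) and Ly6a, which encodes Sca-1 (2387 and 2345 CPM), and Il17rb had 0 reads in both states. By the filter and calls described below, 12 markers passed. In activated cells Il2ra and Il7r were called higher (16.7% against 7.44% of all genes) and Thy1, Id2 and Kit lower (25.0% against 11.6%). Defining markers of other cells were nearly absent: 6 of 7 B cell genes, 9 of 10 genes of monocytes, macrophages and dendritic cells, 8 of 9 genes of mast cells and basophils, 8 of 11 genes of NK cells, ILC1 and ILC3, and 10 of 11 genes of stroma, fat and endothelium had 0 reads in all 22 cells. Of 7 T cell receptor and coreceptor genes, Trac, Trdc, Cd4, Cd8a and Cd8b1 had 0 reads, whereas Trbc2 was at 443 and 539 CPM and Trbc1 at 71.7 and 53.3 CPM, with 99.1% of its activated reads in replicate 9. The summed level of the T cell receptor list ranged from 0 to 3561 CPM over activated cells and from 0 to 2047 CPM over silent cells. Outside that list, Ighm and Il23r had 29 and 14 reads in 1 cell each, and the reads of 4 further genes came almost entirely from 1 cell each. Il22 (2358 CPM) and Fcer1a (334 CPM) were both in activated replicate 11, and Cd68 (295 CPM) and Pecam1 (627 CPM) in silent replicate 7. Their part in the results below was not tested.

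The promoters of 4 cytokine genes and 1 ER gene that were higher in activated cells are shown because the genes were higher together and factors named above are known to bind such motifs. The sequences are the 250 bases before the RefSeq start site (GRCm38.p6), written 5′ to 3′ on the gene's strand, and capitals mark motif matches on either strand. In the cytokine genes these are the NFAT core GGAAA, the AP-1 site TGANTCA and the GATA site AGATAA, and in Creld2 they mark the ER stress element (ERSE), CCAAT and CCACG with 9 bases between them, which is read here on the opposite strand. Their positions are chr11:53634703-53634952 (minus strand) for Il13, chr13:56482258-56482507 (minus) for Il9, chr5:30012864-30013113 (plus) for Il6, chr11:53720544-53720793 (plus) for Il5 and chr15:88819396-88819645 (plus) for Creld2.
Il13: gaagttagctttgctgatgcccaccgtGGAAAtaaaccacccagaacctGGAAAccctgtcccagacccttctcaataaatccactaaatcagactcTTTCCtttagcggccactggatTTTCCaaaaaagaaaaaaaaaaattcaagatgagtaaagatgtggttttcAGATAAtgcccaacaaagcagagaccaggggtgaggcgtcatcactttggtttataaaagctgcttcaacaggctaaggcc
Il9: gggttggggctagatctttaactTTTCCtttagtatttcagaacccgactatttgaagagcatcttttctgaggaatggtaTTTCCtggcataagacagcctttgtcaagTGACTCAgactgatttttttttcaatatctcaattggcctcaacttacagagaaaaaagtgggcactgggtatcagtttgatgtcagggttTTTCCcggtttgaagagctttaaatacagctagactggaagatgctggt
Il6: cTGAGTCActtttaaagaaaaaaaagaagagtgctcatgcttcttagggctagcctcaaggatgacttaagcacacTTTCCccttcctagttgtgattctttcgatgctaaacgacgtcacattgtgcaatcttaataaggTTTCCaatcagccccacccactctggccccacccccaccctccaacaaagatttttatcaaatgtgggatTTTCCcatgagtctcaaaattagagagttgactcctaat
Il5: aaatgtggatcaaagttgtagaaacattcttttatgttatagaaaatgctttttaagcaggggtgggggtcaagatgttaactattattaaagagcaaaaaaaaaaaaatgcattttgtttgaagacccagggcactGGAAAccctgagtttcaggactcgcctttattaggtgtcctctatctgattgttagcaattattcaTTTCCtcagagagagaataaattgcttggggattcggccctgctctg
Creld2: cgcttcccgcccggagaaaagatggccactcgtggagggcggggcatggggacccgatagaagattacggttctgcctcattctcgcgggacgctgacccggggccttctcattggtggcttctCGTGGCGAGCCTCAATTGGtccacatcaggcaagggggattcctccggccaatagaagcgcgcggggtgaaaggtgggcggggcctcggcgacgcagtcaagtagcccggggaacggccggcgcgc
Each cytokine promoter held the NFAT core, 4 times in Il13, 3 times in Il9 and Il6 and 2 times in Il5, but so did 55.6% of 27025 promoters of the same length, 1 per gene. Il9 and Il6 each held 1 AP-1 site, found in 6.87% of all promoters, and Il13 held 1 GATA site, found in 10.2% of them. The ER stress element was rarer: 33 of the 27025 promoters, or 0.122%, held it. Of 25 listed ER folding and unfolded protein response genes with a promoter in the table, 8 held it (32.0%), namely Calr, Canx, Creld2, Dnajc3, Hsp90b1, Hspa5, Pdia6 and Syvn1, and 3 of the 7 of them that passed the level filter described below were called higher in activated cells. Of the listed genes without a match, 2 of 10 that passed were called higher, and of those with no promoter entry 2 of 2, so 7 of 19 in all. In Hspa5 the match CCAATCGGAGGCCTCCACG lies 65 to 47 bases before the RefSeq start. The GENCODE annotation, however, places the start of Hspa5 upstream of that match. The motifs were chosen after the sequences were seen, and a match describes the letters only.

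A level filter, 50 CPM or more on average over the states, left 2796 genes to compare. A gene was called when it differed at least 2-fold in the sum over all cells and at least 2-fold the same way on each title date. By that rule 208 genes were higher in activated cells, 7.44% of those compared, and 323 were lower, 11.6%. The median log2 ratio over the 2796 genes was -0.12, with 0.05 on the first and -0.20 on the second date, so the level of a gene list is read against these values. TMM and DESeq2 scaling raised all ratios by 0.20 and 0.22, under which 260 and 255 genes were higher and 276 and 275 lower. Without activated replicates 9 and 10, an alternative chosen after the data were seen, 195 were higher and 334 lower. Every activated cell exceeded every silent cell in 1 gene, Il9 (0.0358% of genes), and the opposite held for 0 genes.

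**Figure D1:**
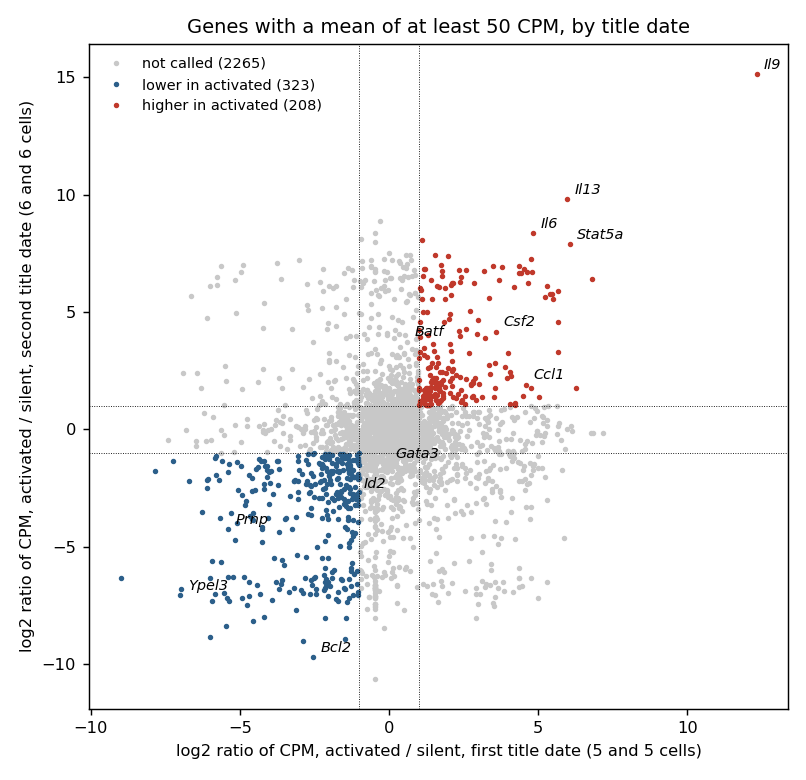
The log2 ratio of CPM, activated over silent, on the second title date (y axis, 6 and 6 cells) against the first (x axis, 5 and 5 cells) for 2796 genes, with dotted lines at 2-fold. Red points (208) were called higher and blue points (323) lower, grey points (2265) were not called, and Il9 lies alone at the top right.

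Cytokine genes had the highest median ratio of the lists with at least 8 members past the filter. Of 26 listed cytokine genes, 8 passed the level filter and 6 of these were called higher (Il9, Il13, Il6, Csf2, Il5 and Il4) and 0 lower, against 7.44% and 11.6% of all genes. Summed over all 26 genes, the list stood at 495, 17800.1 and 182522 CPM in the lowest, median and highest activated cell and at 115, 406 and 4688 CPM in silent cells. For 9 of the 11 activated cells this sum lay above every silent cell.

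Il13 (chr11:53631324-53634702, minus strand), which encodes the index cytokine, was read in 11 of 11 activated cells, at 33.4, 949.7 and 4064 CPM in the lowest, median and highest. In the silent cells all 11 reads were in replicate 1, at 58.5 CPM, and the other 10 cells had 0. Activated replicates 1 and 5 (52.8 and 33.4 CPM) lay below that silent cell, so the states overlapped although 9 activated cells were above all silent cells. The summed levels of 1231 and 4.16 CPM gave a log2 ratio of 8.21 (95% counting interval 7.37 to 9.21), with 5.97 and 9.80 on the first and second date. Without silent replicate 1, where the floor applies, it was 9.98, and leaving out any other cell gave at least 7.82.

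Il9 (chr13:56479277-56482246, minus strand), a growth and survival factor for mast cells and ILC2, showed the widest spread among activated cells, from 24.4 to 154582 CPM with a median of 196. Activated replicates 3, 8 and 11 held 96859.7, 145130 and 154582 CPM, and the gene took up to 15.5% of all gene reads of a cell. The silent cells held 1 read in all, in 1 cell. The ratio of 44252 and 0.378 CPM was 16.84 on the log2 scale with a counting interval of 14.36 to 22.14. With the silent cells set to 3 reads the ratio was 15.25, and 14.46 without activated replicate 11. High and low activated cells occurred on both dates.

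The other cytokine genes overlapped between states. Csf2, which encodes GM-CSF, held 244, 4504 and 56670 CPM in the lowest, median and highest activated cell and 0, 4.75 and 4561 CPM in silent cells (log2 ratio 3.91, 3.85 to 3.98). Il6 was read in 9 activated and 2 silent cells, with a ratio of 7.35 that was 5.80 without activated replicate 6 and 8.30 without silent replicate 5. Il5, the eosinophil growth factor, was read in 11 activated and 10 silent cells and differed far less, at 772 and 204 CPM (1.92, 2.67 without silent replicate 7, dates 2.41 and 1.67). Il4 was called at 96.1 and 35.9 CPM, from 7 activated and 2 silent cells, but its ratio of 1.42 was under 2-fold without activated replicate 7 (0.80) and 3.48 without silent replicate 10. Il2 was higher in the silent cells, at 1.25 and 6.80 CPM, below the level filter, and Il3 had 0 reads in both. Annotated exons of other genes overlap Il5 (Gm12214) and Csf2 (Gm12223), and as the strand setting of the counting is not given, reads of the pairs cannot be told apart.

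Among 16 listed chemokine genes 3 passed the filter and 1, Ccl1, a ligand of CCR8, was called higher (33.3% against 7.44% of all genes). Its level was 147, 5346 and 34763 CPM in the lowest, median and highest activated cell and 0, 9.33 and 4387 CPM in silent cells, with 6 activated cells above all silent cells. The log2 ratio was 3.02 and larger on the first date than on the second (4.59 and 1.89). It was 2.38 without activated replicate 2 and 4.01 without silent replicate 9. Cxcl1 and Cxcl2, neutrophil chemokines, were read almost only in activated replicate 4, at 1551 and 1624 CPM.

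The list of the STAT, SOCS and IL-2 response and that of costimulatory and checkpoint genes had 1 call in each direction. Of 24 genes of the STAT, SOCS and IL-2 response 10 passed, with Stat5a higher and Socs2 lower (10.0% each), and of 33 costimulatory and checkpoint genes 11 passed, with Tnfrsf9 higher and Thy1 lower (9.09% each), against 7.44% and 11.6% of all genes. Stat5a (chr11:100859351-100885169), a transcription factor activated by the IL-2 receptor, held 2.44, 118 and 2200.3 CPM in the lowest, median and highest activated cell, 10 of which lay above every silent cell, and 1 read in all silent cells. Its log2 ratio was 9.79 with a counting interval of 7.31 to 15.10. With the silent cells set to 3 reads it was 8.21, and 7.50 without activated replicate 9. Annotated exons of Stat3 overlap Stat5a on the other strand, and Stat5b is its close paralogue, so the assignment of reads is uncertain. Of 29 cytokine and alarmin receptor genes 7 passed, of which 2, Il2ra and Il7r, were called higher (28.6% against 7.44% of all genes) and 0 lower. Il2ra, the inducible chain of the IL-2 receptor, was at 145, 556 and 3384 CPM in activated and 0, 151 and 1432 CPM in silent cells (log2 ratio 1.86, 2.70 without silent replicate 7). Tnfrsf9, the costimulatory receptor 4-1BB, was read in 9 activated and 4 silent cells, and 8 activated cells were above all silent cells (260.2 and 22.7 CPM, 3.52). Il7r was called at 1.04, but its reads came from 4 activated cells, and the ratio was -0.04 without activated replicate 10 and 2.47 without silent replicate 6.

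Within the transcription factor lists few members were called. Irf4, a factor of lymphocyte activation, had 363 reads in 6 activated cells and 0 in silent cells, 100.3-fold higher against the 3-read floor over the group. Relb, an NF-kB subunit (2.48), and Nfkbiz, an inducible IkB protein (1.19, 0.73 without activated replicate 7), were the called members among 32 NF-kB genes, of which 11 passed the filter (18.2% against 7.44% of all genes), and 0 were lower. Relb had reads in 5 activated and 4 silent cells and its ratio was 1.76 without activated replicate 5 and 3.76 without silent replicate 4. Ahr, a ligand-activated factor of mucosal lymphocytes, was at 147 and 20.4 CPM, and its ratio of 2.85 became 6.90 without silent replicate 4, the 1 silent cell that held its reads. Of 25 AP-1 and CREB genes, 7 passed, and 1 was called each way (14.3% against 7.44% and 11.6% of all genes). Mafg was called higher (1.25) and Crem lower (-1.96, -2.86 without activated replicate 1). Mafg dropped under 2-fold without activated replicate 9 (0.04). Batf, an AP-1 partner in type 2 cells, was at 983 and 230.5 CPM but not called, with ratios of 0.61 and 3.73 on the 2 dates. Of 32 immediate early genes 8 passed the filter and 0 were called. Mir155hg, the host transcript of miR-155, had 319 reads in 6 activated cells and 0 in silent cells and lay just under the level filter.

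**Figure D2:**
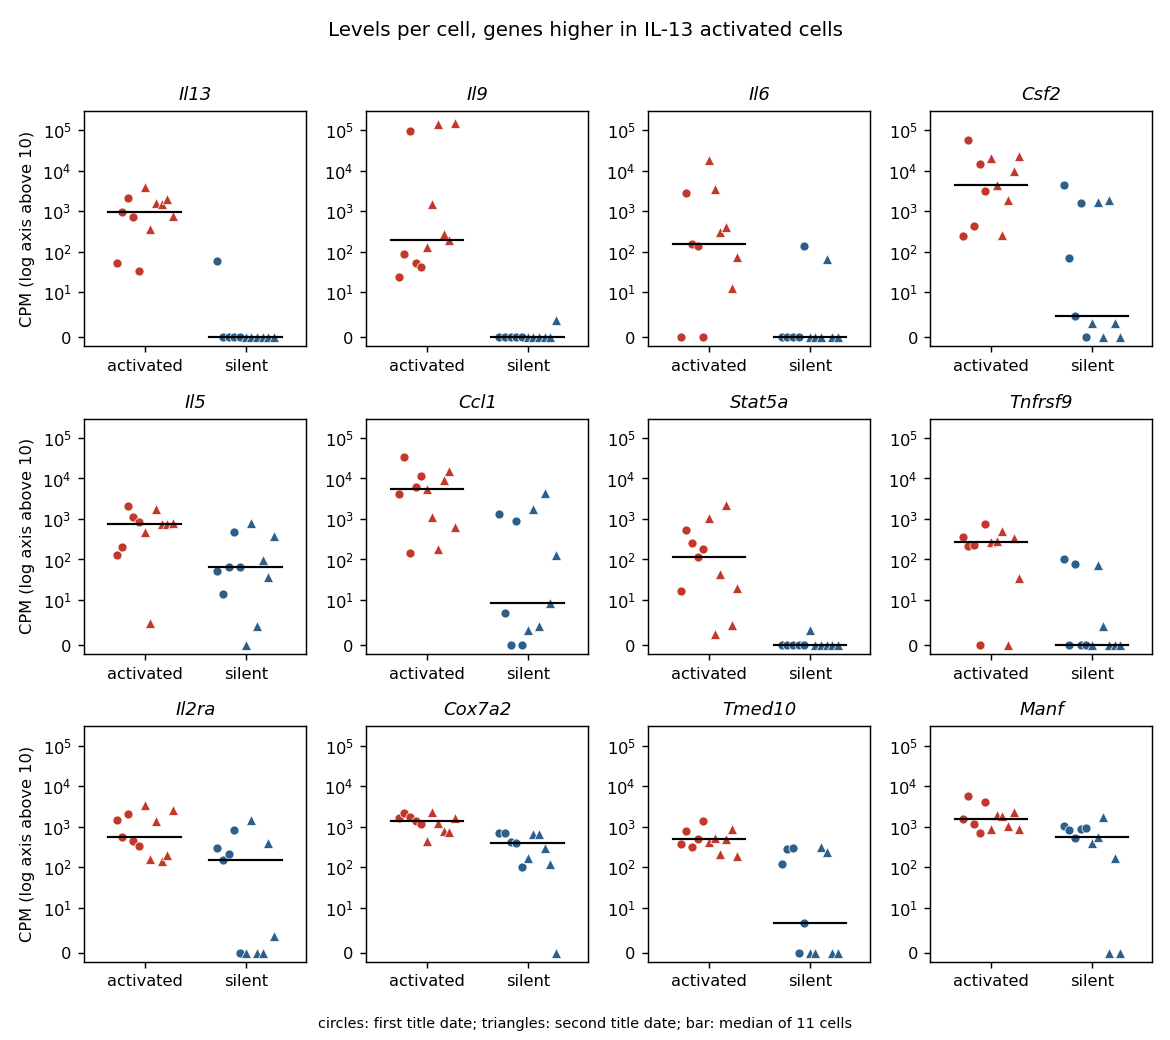
CPM of 12 genes in each of 11 activated (red) and 11 silent (blue) cells, on an axis that is linear to 10 and logarithmic above, with circles for the first and triangles for the second title date and a bar at the median. Il9 separates the states, Il13 and Stat5a nearly do, and Csf2, Il5, Ccl1, Il2ra and Manf overlap.

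Genes that fold secreted proteins lay mostly above the silent level. Of 30 listed ER folding and unfolded protein response genes, 19 passed the filter, 7 were called higher (36.8% against 7.44% of all genes) and 0 lower, and the median log2 ratio of the 19 was 0.78, against -0.12 for all genes. Summed over all 30, the list held 3957, 6627 and 17063 CPM in the lowest, median and highest activated cell and 2531, 4295 and 5855 CPM in silent cells, and 7 activated cells were above every silent cell. Manf, a protein retained in and secreted from the stressed ER, was the most abundant called member, at 680, 1502 and 5713 CPM in activated and 0, 567 and 1719.7 CPM in silent cells. Its log2 ratio was 1.74, with 1.66 and 1.74 on the 2 dates, and annotated exons of 4930524O07Rik, Dcaf1 and Rbm15b overlap it.

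Hspa5, the ER chaperone BiP, was at 225, 778 and 2712 CPM in activated and 0, 376 and 803 CPM in silent cells, a log2 ratio of 1.42 that stayed within 1.22 to 1.58 on leaving out any cell. Creld2, an ER protein with disulfide isomerase activity whose promoter is printed above, was at 235 and 54.8 CPM (2.10, 2.76 without silent replicate 4). P4hb, a protein disulfide isomerase, was at 447 and 83.5 CPM and read in 11 activated and 8 silent cells (2.42). These levels overlapped between states for all 3 genes. Calr, the lectin chaperone calreticulin, had a ratio of 1.71, and Ero1l, the oxidase that recharges disulfide isomerases, one of 1.18, and both stayed over 2-fold on leaving out any cell. Sdf2l1, a BiP cofactor, was at 131 and 10.6 CPM, with all 28 silent reads in 1 cell (3.63, 2.77 without activated replicate 5 and 6.77 without silent replicate 2). Of the transducers and regulators of the pathway, Atf4 was at 356 and 303 CPM, Xbp1 at 125 and 205 CPM, Atf6 and Eif2ak3 had 0 reads, and Ern1 and Trib3 had 89 and 96 reads in silent cells and 0 in activated cells, below the level filter.

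Of 32 ER translocation genes, 29 passed the filter and 0 were called in either direction (median 0.17). Of 44 genes of vesicle coats and SNAREs, 27 passed and 3 were called higher (11.1% against 7.44% of all genes) and 1 lower (3.70% against 11.6%). Tmed10, a cargo receptor of the early secretory pathway, held 192, 487 and 1371 CPM in the lowest, median and highest activated cell and 0, 6.65 and 306 CPM in silent cells, of which 5 had 0 reads. In 9 activated cells the level was above all silent cells, and the log2 ratio of 2.33 was over 2-fold on both dates. Copz1, a COPI coat subunit, was called from 7 activated and 4 silent cells (1.35, 0.95 without activated replicate 2 and 2.04 without silent replicate 1), and Ykt6, a SNARE, from 5 and 3 cells (1.80, 0.65 without activated replicate 9 and 3.31 without silent replicate 6). Vamp8, a SNARE of endosomes and granules, went the other way, at 0, 26.3 and 489.9 CPM in activated and 3.11, 369 and 2348 CPM in silent cells (-2.36), with 5 activated cells at 0 and no silent cell at 0.

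Genes that build ribosomes lay mostly above the silent level. Of 50 ribosome biogenesis genes, 41 passed, 33 of these above a ratio of 0, and 7 were called higher (17.1% against 7.44% of all genes) and 1 lower (2.44% against 11.6%), and their median log2 ratio was 0.93. The summed level of all 50 was 8929, 13415 and 20169 CPM in the lowest, median and highest activated cell and 2645, 7469 and 13026 CPM in silent cells, with 6 activated cells above every silent cell. Npm1, a nucleolar chaperone, held 666, 1199 and 2708 CPM in activated and 3.30, 518 and 995 CPM in silent cells (1.51, dates 1.30 and 1.63), and 7 activated cells were above all silent cells. Ncl, nucleolin, was at 1691 and 679 CPM (1.32), and small RNA genes overlap its exons. The ribosome assembly factors Mrto4 (2.15), Pno1 (2.15) and Noc4l (1.82) had larger ratios at lower levels, with silent reads in 3 or 4 cells. Without 1 silent cell their ratios were 2.83 (replicate 7), 3.69 (replicate 9) and 2.95 (replicate 6). Nop14, also an assembly factor, was called lower from 4 cells of each state (-1.97, -0.68 without silent replicate 6 and -3.50 without activated replicate 10). Of 84 cytosolic ribosomal protein genes, 81 passed, 60 of these above 0, 0 were called and the median was 0.23, with summed levels of 128658, 199703 and 218074 and 77831, 191053 and 234427 CPM that overlapped.

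Of 40 translation factors, 38 passed, 5 were called higher (13.2% against 7.44% of all genes) and 1 lower (2.63% against 11.6%), and the median was 0.35. Eef1e1, a scaffold of the tRNA synthetase complex, was at 266 and 25.3 CPM (3.39, 4.33 without silent replicate 4), and 7 activated cells were above all silent cells. Eif4e, the cap-binding protein, had a ratio of 1.59 and Eif4ebp1, which binds and inhibits it, one of 1.47. Eif3a, a scaffold subunit of eIF3, had a ratio of 2.17, or 2.88 without silent replicate 4. Eif5b, a factor of subunit joining, was lower at 203 and 696 CPM (-1.78). Among 37 SR and hnRNP splicing genes, 28 passed around a median of 0.07. Srsf1 (2.12, 3.13 without silent replicate 9), Srsf9 (1.32, 1.91 without silent replicate 6) and Hnrnpab (1.38) were called higher (10.7% against 7.44% of all genes). Hnrnpu (-1.95, -2.61 without activated replicate 4) was called lower (3.57% against 11.6%).

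Proteasome and chaperone genes also lay mostly above the silent level, with few members past 2-fold. Of 39 proteasome subunit genes, 36 passed, 29 of these lay above and 7 below a log2 ratio of 0, 5 were called higher (13.9% against 7.44% of all genes) and 1 lower (2.78% against 11.6%), and the median was 0.61. Psmc4, an ATPase of the regulatory particle, was at 389.6 and 91.1 CPM (2.10, 2.88 without silent replicate 9), and Psmd11, of its lid, and Psmd2, of its base, were called too (1.88, and 1.65, 2.98 without silent replicate 8). The core subunits Psmb4 (1.63) and Psmb2 (1.45) were also called, and the assembly chaperone Psmd9 was lower (-1.18, -0.35 without silent replicate 9). The summed level of the 39 genes was 8058, 18086 and 22123 CPM in the lowest, median and highest activated cell and 5733, 12207 and 17201 CPM in silent cells, with 6 activated cells above all silent cells. Of 32 chaperone genes, 24 passed with a median of 0.70, and Tcp1, a subunit of the CCT chaperonin that folds actin and tubulin (2.38), and Hspa9, the mitochondrial HSP70 (2.05, 2.74 without silent replicate 7), were called higher, 8.33% and so near the 7.44% of all genes, and 0 lower. Hsp90aa1 (1.23) and Hspe1 (1.59) were over 2-fold in the sum but not on each date.

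Nuclear genes of oxidative phosphorylation lay close to the silent level. Of 94 listed, 81 passed, 3 were called higher (3.70%) and 1 lower (1.23%), under the 7.44% and 11.6% of all genes, and the median was 0.21. Cox7a2, a subunit of cytochrome c oxidase, held 453, 1402 and 2278 CPM in the lowest, median and highest activated cell and 0, 399.9 and 697 CPM in silent cells. In 10 of 11 activated cells the level was above all silent cells, and the log2 ratio was 2.00 with 1.82 and 2.10 on the 2 dates. The complex I genes Ndufc2 (1.58) and Ndufaf4 (1.47) were higher and Ndufa8 (-1.68) lower. Of 78 mitochondrial ribosomal protein genes, 66 passed, 5 were called higher (Mrpl47, Mrps28, Mrpl15, Mrpl41 and Mrps36), or 7.58%, near the 7.44% of all genes, and 0 lower, with a median of 0.16. Mitochondrially encoded genes were not higher, with a summed level of 3286, 6108 and 17119 CPM in activated and 5059.9, 7931 and 13180.2 CPM in silent cells. Among 38 genes of amino acid, nucleotide and polyamine metabolism, 22 passed and 13.6% were called higher, against 7.44% of all genes. The serine synthesis enzyme Phgdh (296 and 84.6 CPM, 1.80) and the serine-glycine enzyme Shmt1 were called. Shmt1 had 355 reads in 4 activated and 0 in silent cells, 98.1-fold higher against the 3-read floor. Its floored log2 ratio of 6.62 was 5.38 without activated replicate 10. Sms, spermine synthase, was the other (1.03, 0.54 without activated replicate 11 and 1.96 without silent replicate 11). Of 30 S and M phase genes, 7 passed and 1 was called each way (14.3% against 7.44% and 11.6% of all genes). Pcna, the sliding clamp of DNA replication, was higher (2.29) and Hmgb2, a chromatin protein of dividing cells, lower (-4.00, -3.20 without silent replicate 5 and -7.89 without activated replicate 6).

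Of genes read in at least 70% of activated cells that stayed over 2-fold without any 1 cell, the 12 with the largest ratios had at most 41 silent reads. Cldnd1, Cyb561d2, Mecr and Cdv3 had 468, 453, 409 and 358 reads in 8, 9, 8 and 8 activated cells and 0 reads in all silent cells. Against the 3-read floor they were 129-, 125-, 113- and 98.9-fold higher. For Cldnd1, 63.0% of the reads were in activated replicate 9, without which its floored log2 ratio of 7.01 dropped to 5.68, and that of Cyb561d2 dropped from 6.97 to 6.35 without activated replicate 7. Mecr encodes an enzyme of mitochondrial fatty acid synthesis. Cflar, the caspase-8 inhibitor c-FLIP, was at 151 and 2.64 CPM (5.83, 6.97 without silent replicate 5), read in 9 activated and 3 silent cells. Chordc1, an HSP90 partner (4.64), Tuba1c, an alpha tubulin with near-identical paralogues (4.56), and Pycrl, a proline synthesis enzyme (4.40), completed the 12 largest with the cytokines and Stat5a. Without silent replicate 1 their ratios were 5.85, 6.33 and 6.41.

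In the other direction, Ypel3 and Slc50a1 had the most negative ratios by the same rule. Ypel3 (chr7:126776955-126780514), known as a growth suppressor, was read in 11 of 11 silent cells and 1 of 11 activated cells, with 3.42, 331 and 689 CPM in the lowest, median and highest silent cell. The level was below every silent cell in 10 activated cells. The log2 ratio was -7.84 (-9.72 to -6.48), with -7.00 and -7.07 on the 2 dates and -8.16 to -7.55 on leaving out any 1 cell. Slc50a1, a sugar transporter of the Golgi and cell surface, had 489 reads in 9 silent cells and 0 in activated cells, 197-fold lower against the 3-read floor. Of 31 Kruppel-like factor and quiescence genes, 5 passed the filter and Ypel3 was the called one (20.0% against 11.6% of all genes).

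Several further genes were read in more silent than activated cells. Prnp, the prion protein gene, was at 0, 0 and 55.5 CPM in activated and 0, 174 and 1487 CPM in silent cells (-4.78, -5.75 without activated replicate 11), and reads may be shared with the overlapping Prn. Gnai2, an inhibitory G protein subunit downstream of chemokine receptors, was read in 4 activated and 10 silent cells (5.95 and 119 CPM, -4.32, -3.68 without silent replicate 8 and -5.65 without activated replicate 5). Limd2, a LIM domain protein linked to motility, was at 33.5 and 305 CPM (-3.19, or -3.49 to -2.99 on leaving out any cell), and Gm10840 overlaps it. Plp2, a membrane protein overlapped by Prickle3, was at 11.0 and 125 CPM (-3.52, -4.11 without activated replicate 6). Pura, a nucleic acid binding protein (-5.09, -7.28 without activated replicate 4), Anxa6, an annexin (-2.98), and Cd84, a SLAM family receptor (-2.93, -3.73 without activated replicate 6), were also among the 12 most negative. So were H2afv, a histone variant (-2.94, -2.12 without silent replicate 7 and -4.25 without activated replicate 2), and St6galnac3, a sialyltransferase (-2.92, -7.04 without activated replicate 10). Thy1, a surface marker of ILC2 and T cells, had a ratio of -4.40, but silent replicate 8 held 3724 CPM of it, and without that cell the ratio was -3.08. All 79 activated reads of Thy1 were in replicate 7, without which it was -8.92.

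Among ILC2 transcription factors, Id2 was read in every silent cell and was lower in most activated cells. Of 24 listed, 12 passed, Irf4 and Ahr were called higher and Id2 and Tox lower (16.7% each way against 7.44% and 11.6% of all genes). Id2, an inhibitor of E proteins needed for all innate lymphoid cells, held 0, 195 and 1377 CPM in the lowest, median and highest activated cell and 329, 516 and 4348 CPM in silent cells. In 8 activated cells the level was below every silent cell, and the ratio was -2.27 with -1.08 and -2.75 on the 2 dates. Gata3, the master factor of the lineage, was at 333 and 689.9 CPM and not called. Silent replicate 11 alone held 3456 CPM of Gata3, and without it the ratio of -1.05 was -0.21. Tox, a factor of innate lymphoid development, was read in 1 activated and 4 silent cells (-4.72, -4.05 without silent replicate 8 and -6.70 without activated replicate 4).

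Few genes of T cell receptor signalling passed the filter, and those called were lower. Of 30 listed, 10 had 0 reads, 8 passed the filter, 5 were called lower (62.5% against 11.6% of all genes) and 0 higher. Cd3g, a chain of the CD3 complex, had 1336 reads in 5 silent cells and 0 in activated cells, so 6 silent cells were also at 0. Skap1, an adaptor for integrin activation, was the most widely read of these, in 6 activated and 9 silent cells (99.0 and 518 CPM, -2.39, -3.52 without activated replicate 10). Zap70, the kinase that docks to CD3 (-3.62, -1.16 without silent replicate 10 and -5.47 without activated replicate 8), and Ptpn6, the phosphatase SHP-1 (-3.18, -2.42 without silent replicate 8 and -5.75 without activated replicate 7), were read in 2 activated and 4 silent cells each. Vav1, a guanine nucleotide exchange factor, was the other (-1.88, or -3.68 to -1.10 on leaving out any cell). Summed over the list, activated cells held 207, 635 and 1448 CPM and silent cells 49.6, 1614 and 6290.1 CPM in the lowest, median and highest cell, and the lowest cell of all was a silent one. Among NFAT and calcium genes, 6 of 26 passed, and 2 were called lower (33.3% against 11.6% of all genes), each read in 2 or 3 activated cells. They were Ppp3ca, the catalytic subunit of calcineurin (-3.83, -2.75 without silent replicate 10 and -6.15 without activated replicate 9), and Nfatc1, a factor it activates (-3.20, -2.41 without silent replicate 6 and -4.79 without activated replicate 10).

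The called protease inhibitors of the serpin and Ctla2 families were lower. Of 20 listed, 6 passed, 3 were called lower (50.0% against 11.6% of all genes) and 0 higher. Ctla2a, a cathepsin inhibitor abundant in both states, held 0, 1762 and 4097 CPM in activated and 6.60, 3296 and 14016 CPM in silent cells (-1.50). Ctla2b had 579 reads in 7 silent cells and 0 in activated cells, 233-fold lower against the 3-read floor. The 2 genes are near-identical copies, so their reads may have been split between them. Serpinb1a had 1002 silent and 0 activated reads, but 83.5% were in silent replicate 6, and against the floor its log2 ratio of -8.65 was -6.23 without that cell.

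**Figure D3:**
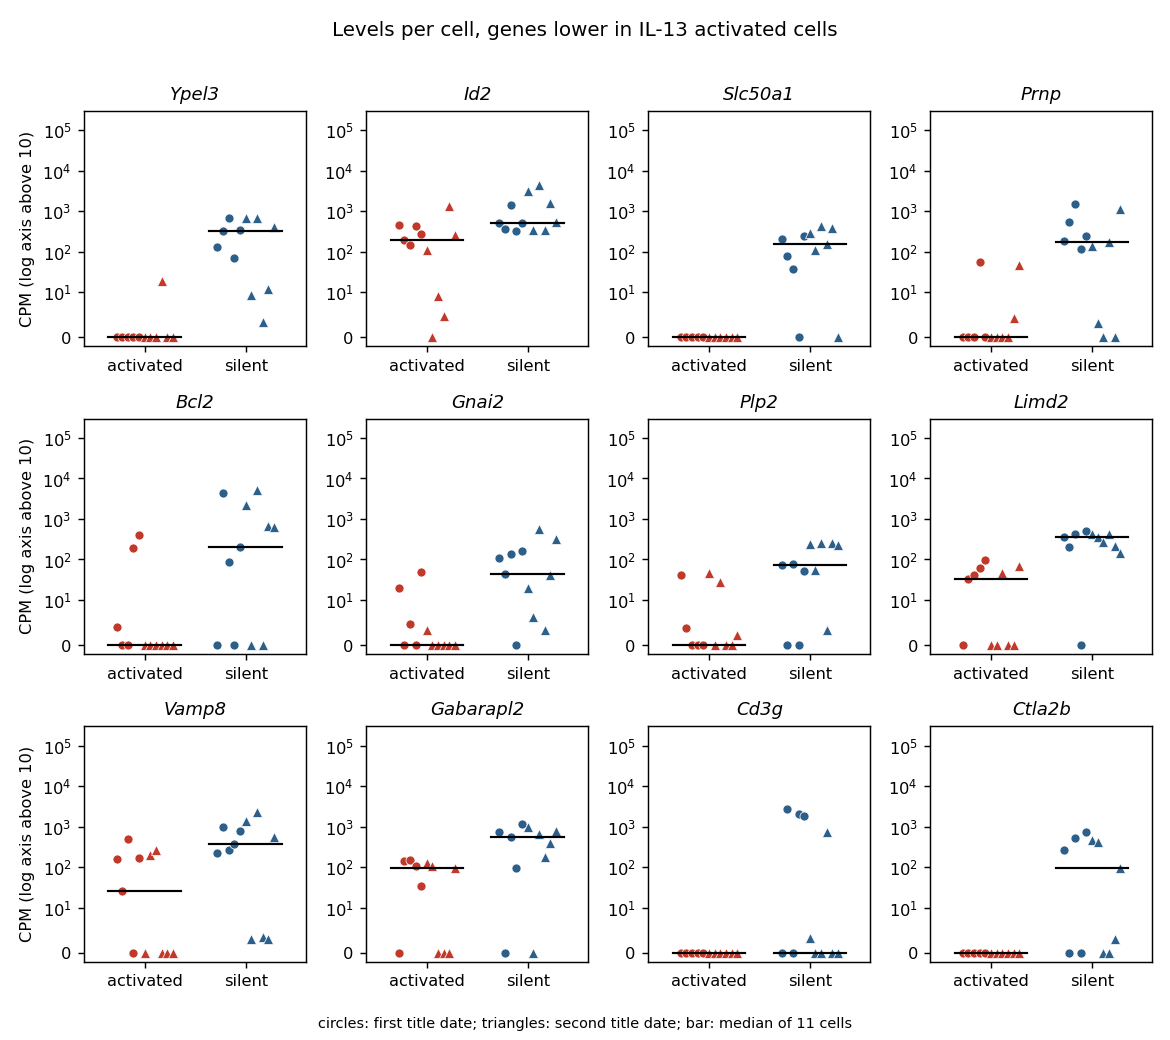
CPM of 12 genes in each of 11 activated (red) and 11 silent (blue) cells, on an axis that is linear to 10 and logarithmic above, with circles for the first and triangles for the second title date and a bar at the median. Ypel3 was read in 1 activated cell, Slc50a1, Cd3g and Ctla2b in 0, and Id2 was at 329 CPM or more in every silent cell.

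Of 32 genes of the BCL2 family and cell death 8 passed, 6 of them above a ratio of 0, with Cflar called higher and Bcl2 lower (12.5% each way against 7.44% and 11.6% of all genes). Bcl2, the anti-apoptotic protein, was read in 3 activated and 7 silent cells, at 47.3 and 1096 CPM (-4.54), and 3 silent cells, replicates 2, 6 and 8, held 4270.1, 2167 and 5202 CPM. Without silent replicate 8 the ratio was -3.88, and without activated replicate 5 it was -5.83. Of 40 actin cytoskeleton genes, 32 passed, 27 of them lay below a ratio of 0, around a median of -0.72. Past 2-fold, 3 were called lower, 9.38% against 11.6% of all genes, and 0 higher. Capzb, an actin capping protein, was at 3.38, 383 and 907 CPM in activated and 367, 959.8 and 2038 CPM in silent cells (-1.36), and Myl12b and Myh9, a light and a heavy chain of non-muscle myosin, were also called (-1.61, and -2.35, -3.05 without activated replicate 10). The summed level of the 40 genes was 12439, 27076 and 59895 CPM and 24012, 44016 and 60296 CPM in the lowest, median and highest cell of the states, which overlapped. Tmsb4x, an actin monomer binder, was the most abundant member at 13864 and 24497 CPM.

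Of 35 listed stress and autophagy genes, 29 passed, 2 were called higher (Prdx3 and Gclm, 6.90%) and 3 lower (10.3%), shares close to the 7.44% and 11.6% of all genes. Gabarapl2, an ATG8 family protein of autophagosomes, was at 0, 94.8 and 151 CPM in activated and 0, 551 and 1163 CPM in silent cells (-2.73, or -2.92 to -2.53 on leaving out any cell). Prdx5, a peroxiredoxin, was lower (-2.22), while its mitochondrial relative Prdx3 was higher (1.55). Gclc, the catalytic subunit of the first enzyme of glutathione synthesis, was lower (-1.93, -1.09 without silent replicate 6), while its modifier Gclm was higher (1.41, 0.93 without activated replicate 1 and 2.54 without silent replicate 6). Fth1, the ferritin heavy chain, was at 7511 and 14518 CPM and not called. Ramp1, a subunit of the receptor for the neuropeptide CGRP, was lower at 106 and 614 CPM (-2.53, -1.86 without silent replicate 6), the 1 called gene of 26 lipid mediator and neuro-immune genes, of which 8 passed (12.5% against 11.6% of all genes).

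Of 26 MHC and antigen presentation genes, 13 passed, 10 of these lay below 0 and 1, Tapbp, was called higher, 7.69% against 7.44% of all genes (2.53, 1.41 without activated replicate 10 and 3.91 without silent replicate 5). B2m, the light chain of MHC class I, was at 3545, 9201 and 20772 CPM in activated and 8259, 15141 and 22961 CPM in silent cells (-0.66, not called). Adhesion and migration genes had 9 of 35 past the filter and 2 called lower (22.2% against 11.6% of all genes), both under 2-fold without 1 cell. They were Kit, the receptor on which the cells were sorted (-1.28, -0.88 without silent replicate 3), and Icam1, a ligand of leukocyte integrins (-3.37, -0.91 without silent replicate 9 and -4.35 without activated replicate 7). Of 35 chromatin regulators 11 passed, and 2 were called lower (18.2% against 11.6% of all genes) and 0 higher. They were the demethylase Kdm5b, with 3 activated reads (-7.41, -5.05 without silent replicate 11, counting interval -9.69 to -5.85), and the bromodomain protein Brd2 (-1.69, -2.30 without activated replicate 6). In 32 glycolysis and pentose phosphate genes 14 passed, and Ldhb, a lactate dehydrogenase subunit (-6.42, -8.32 without activated replicate 3), and Gpi1, a glycolytic isomerase (-1.52), were called lower (14.3% against 11.6% of all genes) and 0 higher. Of 27 interferon response genes 4 passed, with Irf4 called higher and Irf3 lower (25.0% each way against 7.44% and 11.6% of all genes). Irf3 changed sign without 1 cell (-2.36, 0.17 without silent replicate 6 and -3.10 without activated replicate 6). In the STAT and SOCS list, 10 of 24 passed, and Socs2, a feedback inhibitor of cytokine receptors, was called lower (-4.04, -2.86 without silent replicate 11 and -6.85 without activated replicate 7) beside Stat5a, which was higher. Of 37 cholesterol and fatty acid synthesis genes 6 passed, with 1 called each way (16.7% against 7.44% and 11.6% of all genes). Idi1 was higher (3.23, 6.09 without silent replicate 1). Acly was lower and changed sign without 1 cell (-1.34, 1.00 without silent replicate 6 and -2.30 without activated replicate 10). Of 26 Myc and G1 genes 5 passed and 0 were called. The counting strand is not given, and annotated exons of other genes also overlap Gata3, Mafg, Crem, Pno1, Nop14, Eif4e, Eif5b, Tcp1, Srsf1, Hnrnpab, Hnrnpu, Psmd9, Shmt1, Bcl2, Tox, Ptpn6, Skap1, Prdx5, Gclm, Tapbp, Brd2, Gpi1 and Irf3, so reads of such pairs may be shared.

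**Figure D4:**
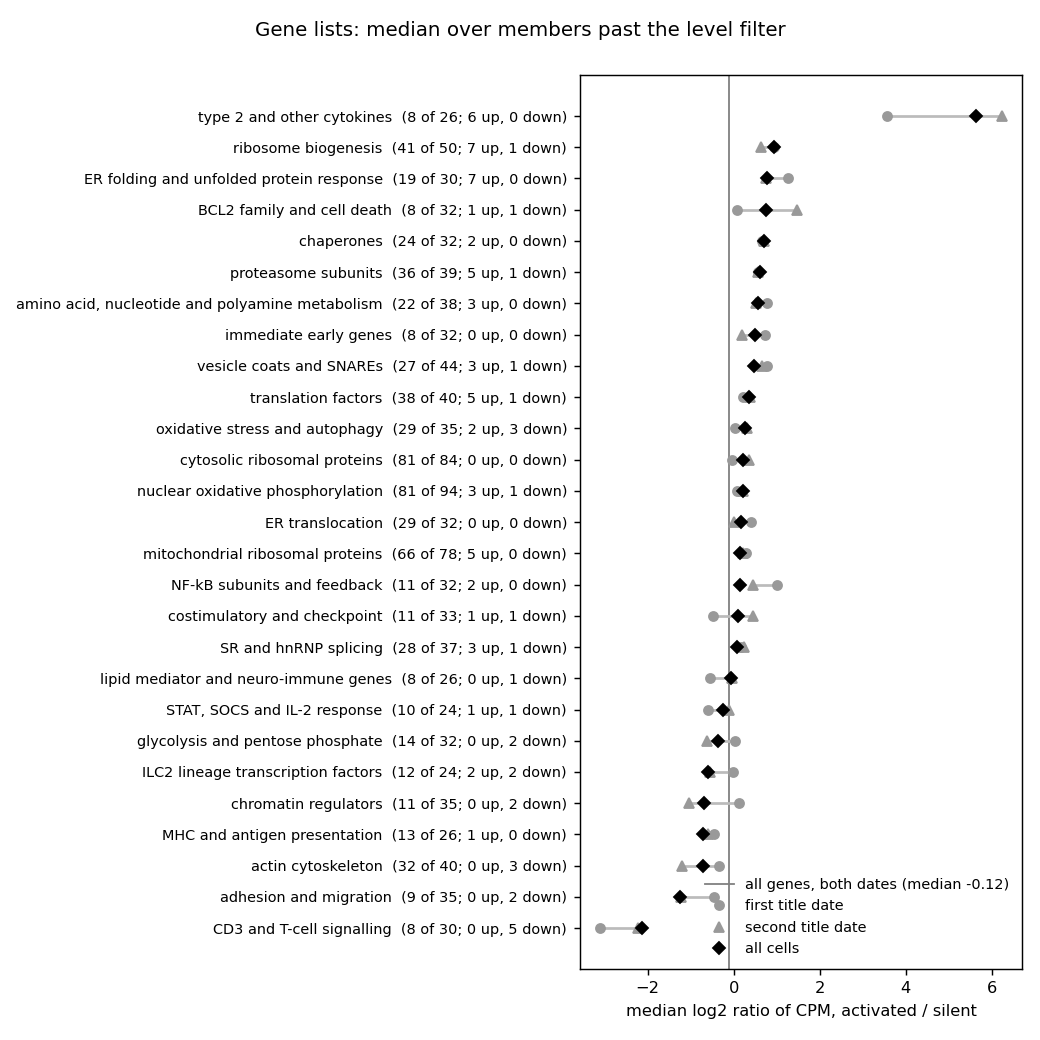
Median log2 ratio of CPM, activated over silent (x axis), of gene lists with at least 8 members past the level filter, in all cells (black), on the first (circles) and on the second (triangles) title date. Labels give members past the filter of all members and the number called higher and lower, and the grey line marks the median of all genes (-0.12). Cytokines lie farthest right and CD3 and T-cell signalling genes farthest left. Members with few reads in a state can pass the filter by their level in the other, which can move a median outward.

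The other states of the IL-13 index place these levels. Il13 was at 1.04 CPM in 5 cells before stimulation, all of the first title date, 2144, 967 and 504 CPM in 11 cells each taken at 30, 60 and 90 min from onset, 1231 CPM in activated and 4.16 CPM in silent cells. Stat5a had 0 reads before stimulation and was at 71.0, 84.6 and 203 CPM at the 3 times after onset, against 335 CPM in activated cells, where replicate 9 alone held 42.7% of its reads and the median was 118 CPM. For Il9 the values at 30, 60 and 90 min were 0.374, 236 and 43.8 CPM, against 44252 CPM summed over activated cells. That sum was carried by activated replicates 3, 8 and 11, and the activated median of 196 CPM lay below the summed level at 60 min. Ypel3 went from 329.7 CPM before stimulation through 146, 104 and 70.2 CPM to 1.25 CPM in activated cells, and silent cells (287 CPM) were close to the level before stimulation. Id2 was at 1180 CPM before stimulation, 671, 1174 and 1140.2 CPM after onset and lowest in activated cells (269.9 CPM). Npm1 was at 391 CPM before stimulation, 709.7 CPM at 90 min and 1562 CPM in activated cells. For some genes the silent cells stood apart from all other states. Tmed10 was at 317 CPM before stimulation and 102 CPM in silent cells, the lowest of the states, and Cox7a2 at 773 and 362 CPM likewise. Prnp, at 27.0 CPM before stimulation and 0 to 42.0 CPM after onset, stood out by its level in silent cells (335 CPM) rather than in activated ones. Cd3g was highest before stimulation (1128 CPM), lower in silent cells (505 CPM) and at 0 in activated ones.

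**Figure D5:**
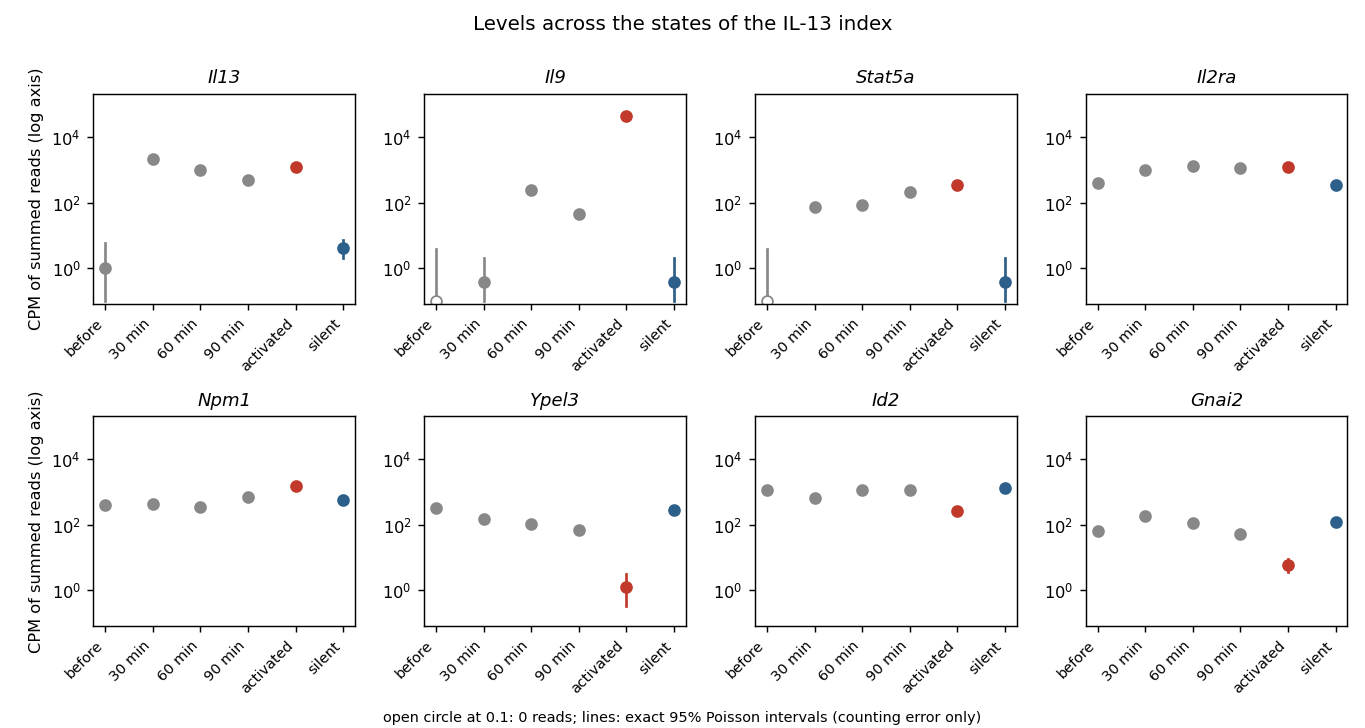
CPM of summed reads (log axis) of 8 genes in the states of the IL-13 index: before stimulation (5 cells), 30, 60 and 90 min after onset, activated (red) and silent (blue, 11 cells each). Lines are exact 95% Poisson intervals, which cover counting error only and are mostly hidden by the points, and an open circle stands for 0 reads. Il9 and Npm1 are highest in activated cells, as is the sum of Stat5a, to which 1 cell gave 42.7% of the reads, and Ypel3, Id2 and Gnai2 lowest there.

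The same contrast with IL-5 as the index (11 activated and 10 silent cells after 1 silent cell under 10000 gene reads was dropped) gave values that are set beside these without a test. Cells of that index were chosen on IL-5 secretion by their labels and carry other title dates, so index and date cannot be told apart. Ranges below are those on leaving out any 1 cell of that index. Il13 was at 991 and 626 CPM there (0.66, range 0.16 to 1.5, against 8.21), and Il9 at 60451 and 3.26 CPM. Csf2 (0.63, range 0.07 to 1.04) and Stat5a (0.75, range 0.55 to 1.5) were under 2-fold with all cells, and both passed it without 1 cell. The silent cells of that index held 7827 and 199.8 CPM of them. Il2ra (1.68, range 1.51 to 1.91), Creld2 (1.92, range 1.73 to 2.17) and Npm1 (1.13, range 1.04 to 1.27) were over 2-fold higher in activated cells of both indexes, and Manf was at 0.94. Skap1 (-2.77, range -3.60 to -2.33), Gnai2 (-2.54, range -3.85 to -1.89) and Ctla2b (0 and 107 CPM) were lower in both. Gnai2 averaged 17.4 CPM over the states of the IL-5 index, under the level filter of 50 CPM. Bcl2 (-2.02, range -3.59 to -0.63) and Crem (-2.16, range -2.65 to -0.93) were also lower, but under 2-fold without 1 cell. Ypel3 (-0.56), Id2 (-0.10), Cox7a2 (0.27), Hspa5 (-0.06) and Tcp1 (0.11) were under 2-fold in the IL-5 index with all cells and without any 1 cell. The 2 dates of that index went opposite ways for Ypel3 (4.92 and -1.58) and Id2 (-1.04 and 0.43), so their sums do not show steady levels. The named genes were also counted by direction there, by the sum over cells alone, without the level filter or the rule of both dates. The matching share of all genes was not taken, so the counts do not measure agreement. Of the 65 named genes called higher in the IL-13 index, 16 were at least 2-fold higher in the IL-5 index, 46 were under 2-fold and 3 were at least 2-fold lower. Of the 48 called lower, 18 were at least 2-fold lower, 27 under 2-fold and 3 at least 2-fold higher. The opposite ones were Ahr (-2.44, range -3.05 to -1.42), Ykt6 (-2.22, range -2.81 to -1.11) and Nfkbiz (-1.03, range -1.58 to -0.30), and Thy1 (1.56, range 0.98 to 3.66), Nop14 (1.32, range 0.71 to 2.83) and Ldhb (3.49, range -0.16 to 3.68). Of these, Thy1 (40.7 CPM on average) and Ldhb (5.49 CPM, with reads in 1 activated cell) were under the level filter there.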

How the data were processed

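Gene-level raw read counts of single ILC2 were deposited by the authors, 1 table per cell. Per the labels and methods, 3' SMART-Seq v4 libraries without molecular identifiers were pooled 5 or 6 together before tagmentation, aligned with TopHat2 and counted by gene with HTSeq, and mm10 and GRCh38 are the builds named in the submitters' processing notes. The strand setting and tool versions are not given in the sources used here. The 5 summary entries of each table stayed out of the gene totals, and 45143 of 46078 identifiers had a symbol, which left 0.0344% of reads without one.

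Groups came from the labels. Reads were summed over the 11 cells of each state and divided by the state's total (3193331 activated and 2646835 silent gene reads), so 3 reads, the floor, are 0.939 and 1.13 CPM. Because no animal or culture is named for a cell, no test was run. Counting intervals (95%) are exact Clopper-Pearson limits of the split of reads, turned into ratios, and exact Poisson limits of CPM. Intervals and floors cover counting error only. Calls needed a mean of 50 CPM and a 2-fold difference in the sum and on each title date.

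The genes named were the 12 with the largest and the 12 with the smallest ratios among called genes that reached 50 CPM in the higher state, had reads in at least 70% of its cells and stayed over 2-fold by the mean of cells and without any 1 cell, a fixed set (Il13, Il5, Il4, Il9, Csf2, Il6, Il2, Il3, Mir155hg, Gata3 and Il1rl1), and of each of 45 gene lists up to 4 called members in each direction and the 3 of highest mean CPM. Calr, Ero1l, Xbp1, Atf6, Eif2ak3, Ern1, Trib3, Psmb2, Vav1, Mrps36, Ighm and Il23r lie outside that rule and were named after their values were seen. Members and lists were chosen with earlier results of these data known.

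Alternatives were TMM (edgeR 4.0.16) and DESeq2 1.42.0 factors on the sums, totals without Il9, the mean of cells, each date alone, other filters and folds, and leaving out cells. Promoters are from RefSeq. Scripts used Python 3.11.15 with pandas 2.3.3 and scipy 1.17.1 and R 4.3.3, and were tested on simulated data.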

Additional observations from a re-analysis of the deposited data

How the results depend on the processing

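The count of genes called higher (208) or lower (323) in activated cells depended on the filter, the fold and the rule of both dates. The first date alone gave 699 higher and 611 lower genes and the second alone 621 and 923, since neither then had to hold on the other. A mean of at least 10 CPM gave 609 and 788 genes, at least 200 CPM 52 and 45, no filter 718 and 867, and a 4-fold rule 66 and 134. Within 1.5 times of the reported counts were TMM (260 and 276), DESeq2 factors (255 and 275), totals without Il9 (225 and 308), the mean of cells (222 and 327) and the demand that a call also hold without any 1 cell (175 and 257). Leaving out single cells gave 199 to 246 higher and 283 to 350 lower genes. Leaving out activated replicates 9 and 10, chosen after seeing the data, gave 195 and 334, of which 159 and 290 were among the reported calls.

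The Il13 ratio of 8.21 was 5.97 on the first and 9.80 on the second date, and 7.82 to 9.98 without single cells. The difference between the median numbers of genes detected (activated minus silent, 546) was 433 in unthinned cells, 249 for genes with at least 5 reads, 161 and 635.5 on the 2 dates, 592 without activated replicates 9 and 10, and 501.5 to 569 without single cells.

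Among 113 named genes that were called, the ratio changed sign in Il7r (-0.042 to 2.47 without single cells, the lowest without activated replicate 10), Irf3 (-3.10 to 0.17) and Acly (-2.30 to 1.00, both highest without silent replicate 6) and Mafg (-0.96 without activated replicates 9 and 10). The cause was not tested. No paired analysis was possible because no label ties a cell of one state to a cell of the other, the numbers in the titles being those of index primers, and values within each date stand in its place. With 22 cells and at most 464285 gene reads in a cell, 0 reads of a gene do not show that it was not expressed.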
